A study of Arabidopsis thaliana with 9 samples.

Results

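The F1 hybrid of the Arabidopsis thaliana accessions C24 and Col was compared with Col, using all 3 F1 arrays and all 3 Col arrays of a set of 9. The F1 rosettes came from the cross written C24 x Col, the Col rosettes from the inbred line Col-0, and the other 3 arrays from the inbred line C24, which enter as a level beside the comparison, in the shared estimate of the spread and in the filter on dim probe sets. The labels name no transgene and no treatment. Plants of all groups were sown on Murashige and Skoog agar plates, kept at 22 °C with a 12 h photoperiod and harvested as whole rosettes 15 days after sowing. Each group had 3 biological replicates. The sources used here do not give the seed parent, the plants per sample, the hour of harvest or the days of array processing, so that no batch could be tested. Each array gave a MAS5 signal, a linear intensity, for 22810 probe sets, and 13648 of them were tested after controls and dim probe sets were set aside. The annotation given here names 1 gene for 7354 of those tested, and the genes below come from these alone. A rosette is a mixture of cell types, so fewer cells of a type and less RNA per cell cannot be told apart.

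A hybrid carries a nuclear genome copy from each parent, while its chloroplasts and mitochondria usually come from the seed parent alone. Hybrids between C24 and Col are a standard system for heterosis, the gain in size and vigour of a hybrid over its inbred parents. In a rosette at this age the bulk of the messenger RNA serves photosynthesis. Beside it stand smaller programmes that change within hours: the genes of touch, cold and calcium signalling, the salicylic acid and jasmonate defences, the auxin-responsive genes of cell expansion, and flavonoid synthesis.

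Log2 signals correlated across the probe sets that passed the filter, at 0.978 to 0.98 between F1 arrays and at 0.979 to 0.982 between Col arrays. Between F1 and Col arrays they correlated at 0.947 to 0.961, a description over probe sets that share the same 6 arrays. The labelled tissue was checked against marker genes. The signal of RCA, which encodes rubisco activase, was 37123, 38396 and 34859.8 in F1 and 34568, 32886 and 41461 in Col. Of 6 root markers only PYK10 was bright enough to be tested, at 1985 in F1 and 2726 in Col (mean of 3 arrays), with an adjusted p of 0.218. Neither of the seed markers and neither of the apex and flower markers was bright enough to be tested. The F1 replicate 2 array was the highest of the 3 F1 arrays, by a wide margin, in 3 defence genes, PDF1.2, PDF1.2b and the chitinase gene CHI, whose values are therefore given with and without it.

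The hybrid gained more transcripts by a large factor than it lost. Of the 13648 probe sets, 869 passed the threshold as higher in F1 (6.37%) and 694 as lower in F1 (5.08%), an adjusted p of 0.05 from limma with Benjamini-Hochberg adjustment. At a difference of 2-fold or more the counts were 276 higher (2.02%) and 55 lower (0.403%), which is 5.02 rises for each fall and 2.43% of all tested. Among probe sets with 1 gene, 451 were higher (6.13%) and 337 lower (4.58%), with 133 rises (1.81%) and 33 falls (0.449%) of 2-fold or more. All F1 arrays lay above all Col arrays in 1969 probe sets (14.4%) and below them in 1992 (14.6%). The median difference over all probe sets tested was -0.0055 on the log2 scale. After the arrays were centred on their medians the call rule gave 738 higher and 813 lower, so that the order of the 2 counts without a fold limit turned, while the order at 2-fold did not turn in any of the 18 alternatives tried. Both counts fell when an array was left out, to 640 higher and 443 lower without Col replicate 1. They were 611 and 388 without Col replicate 2, and 606 and 439 without F1 replicate 2. Without Col replicate 2 the whole count was 999. Such fits have fewer arrays, and whether the number of arrays or the array left out mattered was not tested.

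The excess of rises grew with the size of the difference. At 1.5-fold the calls were 583 higher and 326 lower, at 4-fold 78 higher and 1 lower, and at 8-fold 38 higher and 0 lower; without the call rule, 38 probe sets were at least 8-fold higher and 0 at least 8-fold lower. Rises of 2-fold or more outnumbered falls in each of 4 equal classes of mean signal, with 114 higher and 19 lower in the dimmest class and 44 higher and 12 lower in the brightest. They did so in each of the 9 pairings of an F1 array with a Col array, where 309 to 468 probe sets were 2-fold higher in F1 and 138 to 235 were 2-fold lower; these pairings share arrays and are not independent. The 3 F1 arrays, each against the Col mean, gave 332, 352 and 303 rises and 122, 163 and 101 falls.

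The risers and the fallers began from different levels. The 276 risers had a median signal of 419 in F1 and 113 in Col, with 576 in C24. The 55 fallers had a median signal of 318 in F1 and 698 in Col, with 215 in C24. Of the risers, 113 had a Col mean below 89.9, the signal that corresponds to the filter, and so passed it through their F1 or C24 level; of the fallers, 4 had an F1 mean below it. The falls were shallow, reaching -2.14 on the log2 scale with a median of -1.18, whereas the rises reached 6.43 with a median of 1.54. The hybrid is set here against its own parent, and whether that limits the depth of the falls was not tested. When the filter was set on the F1 and Col arrays alone, an alternative chosen after seeing the data that tests another set of probe sets, 231 rises and 58 falls were past the same limits, which is 3.98 rises for each fall.

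**Figure D1:**
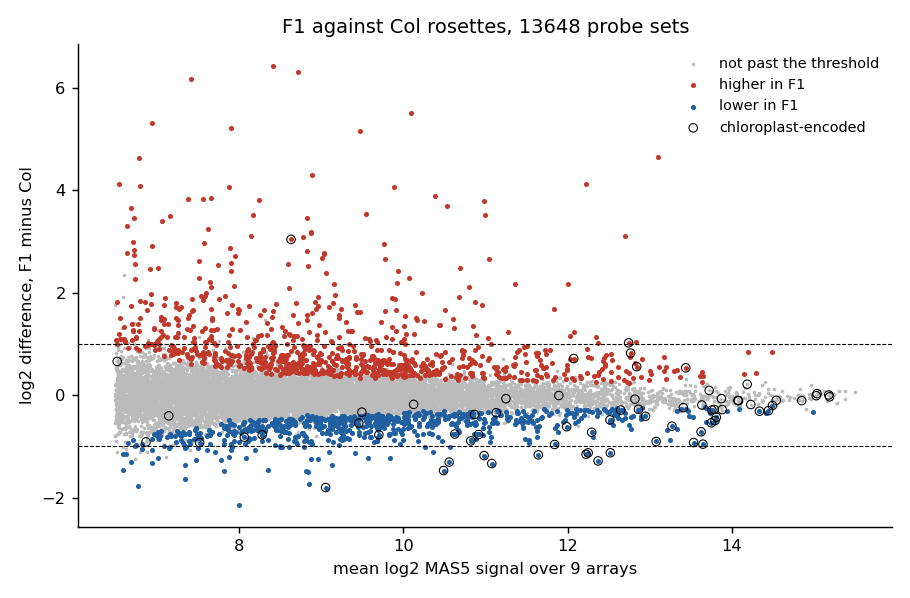
Each of the 13648 probe sets is a point, with its mean log2 MAS5 signal over the 9 arrays on the x axis and its log2 difference, F1 minus Col, on the y axis; coloured points passed the threshold, open circles mark chloroplast-encoded genes and dashed lines mark 2-fold. Red points reach 6.43 above 0, while blue points reach -2.14.

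**Figure D2:**
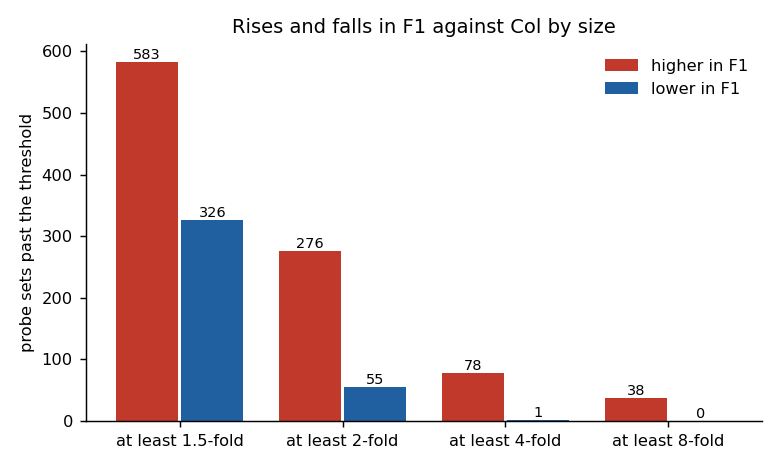
Bars count the probe sets past the threshold that were higher (red) or lower (blue) in F1 than in Col by at least the fold given on the x axis. The counts of 583 and 326 at 1.5-fold become 38 and 0 at 8-fold.

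Genes listed for rapid signalling that passed the filter on dim probe sets, which used the F1 arrays too, were higher in F1. STZ, which encodes a zinc-finger transcription factor induced by cold, salt and wounding, had signals of 899, 1048 and 707 in F1, against 74.2, 42.3 and 44.9 in Col. Every F1 array lay above every Col array by a wide margin, a log2 difference of 4.07 ± 0.21 (SE, adjusted p = 6.34e-09). The C24 mean was 289. With an offset of 32 added before the logarithm, the difference was 3.42; the Col mean of 53.8 was below the filter signal.

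ORA47, an AP2/ERF transcription factor that promotes jasmonate synthesis, followed the same direction, with 727, 683 and 565 in F1, against 94.4, 127 and 153 in Col. The groups did not overlap and differed by 2.42 ± 0.19 (SE, adjusted p = 4.64e-07), while C24 averaged 171. AR781 stood at 566, 788 and 772 in F1, against 198, 263 and 251 in Col, a difference of 1.57 (adjusted p = 7.08e-05), with a C24 mean of 177. CML38, a calmodulin-like calcium sensor, stood at 161, 99.8 and 172 in F1, against 85.8, 47.8 and 68.7 in Col. Its Col mean of 67.4 was below the filter signal and its C24 mean was 90.4, so it was tested through its F1 level. Its rise of 1.097 (adjusted p = 0.0316) was not past the threshold without Col replicate 2 (0.87), Col replicate 3 (1.13), F1 replicate 1 (0.9998) or F1 replicate 3 (0.95), where the adjusted p lay between 0.0553 and 0.12. These were the 4 tested of 8 genes listed for rapid calcium, wound and touch signalling, beside 6.37% higher over all probe sets. The list was drawn up with earlier results on STZ, ORA47 and AR781 known, and the other 4 were too dim to be tested. Of the 4 tested, 1 was still tested and called with the 60th-percentile filter. The broader family of calcium sensors, pumps and calcium-dependent kinases had 1 member past the threshold of 16 tested, CML38 itself, which is near the 6.37% higher over all probe sets.

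Some cold-regulated genes were higher in F1. COR15B, which encodes a chloroplast protein that protects membranes in the cold, had signals of 3232, 3155 and 3327 in F1, against 1235, 1118 and 1934 in Col, which is a log2 difference of 1.22 ± 0.16 (SE, adjusted p = 0.000162). The groups did not overlap. Its paralogue COR15A stood at 8518, 9341 and 7651 in F1, against 5347, 5625 and 4312 in Col, a smaller difference of 0.74 (adjusted p = 0.000606), again without overlap; the C24 means were 3436 for COR15B and 7925 for COR15A. With STZ, which is on this list too, 3 of the 6 cold and abscisic acid genes tested passed, each as higher, beside 6.37% higher over all probe sets. The dehydrin gene COR47 stood at 2741, 3056 and 2708 in F1, against 1635, 1708 and 1886 in Col. These groups did not overlap, but the difference of 0.70 did not pass (adjusted p = 0.0901). Its C24 arrays, which enter the shared estimate of the spread, read 1898, 5147.5 and 2109. LTI30 differed by -0.49 with an adjusted p of 0.533 and did not pass. Over all settings 2 to 4 genes of the list were called higher.

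Among defence genes, the thionin gene THI2.2, which encodes a small antimicrobial peptide, rose evenly in the 3 F1 samples. Its signals were 6509, 5943 and 7047 in F1, against 1308, 1582 and 1428 in Col, which is a log2 difference of 2.18 ± 0.10 (SE, adjusted p = 8.31e-10), and C24 averaged 7513. The 3 F1 arrays were close to each other, and the lowest of them lay far above the highest Col array. CSA1, an NLR-type immune receptor, stood at 717, 761 and 658 in F1, against 234, 368 and 314 in Col, a difference of 1.25 (adjusted p = 0.000106), with 1390.5 in C24. CW9, listed with the same family, differed by 1.00 (adjusted p = 0.0136), a call lost without Col replicate 1 (adjusted p = 0.0531) or F1 replicate 1 (adjusted p = 0.0626), at 0.85 each time. These were 2 of the 3 NLR-type genes tested, beside 6.37% higher over all probe sets, and 1 to 2 were called over all settings. The Col mean of CW9, 70.1, was below the filter signal, so it was tested through its F1 and C24 levels.

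The plant defensins and the chitinase were far more uneven between hybrid samples. PDF1.2b had signals of 215, 4069.8 and 272 in F1, against 5.28, 6.1 and 11.6 in Col, and PDF1.2 had 135, 3617 and 255 in F1, against 83.7, 62.0 and 91.2 in Col. Both defensins, which are standard readouts of jasmonate and ethylene defence, were higher in every F1 array than in any Col array, but F1 replicate 2 was more than 10 times its partners. The difference was 6.43 for PDF1.2b (adjusted p = 3.95e-05) and 5.07 without F1 replicate 2, with 7.19 without F1 replicate 1 and 7.02 without F1 replicate 3, and it was 4.09 with the offset of 32. For PDF1.2 it was 2.68 (adjusted p = 0.036), 3.62 without F1 replicate 1 and 1.25 (adjusted p = 0.00696) without F1 replicate 2. That call was lost without any 1 of the Col arrays, with adjusted p-values of 0.0866, 0.126 and 0.0692 without Col replicates 1, 2 and 3. The probe set named for PDF1.2b is of a kind that can bind transcripts of related genes.

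The chitinase gene CHI stood at 212, 468 and 82.5 in F1, against 54.7, 8.91 and 42.6 in Col, also without overlap. Its difference of 2.87 (adjusted p = 0.00456) was 2.27 without F1 replicate 2, 3.52 without F1 replicate 3 and 2.06 without Col replicate 2, past the threshold each time, and 1.91 with the offset. C24 averaged 2398 for CHI, 3564 for PDF1.2 and 9045 for PDF1.2b. All 3 genes had Col means below the filter signal, so they were tested because of their F1 and C24 levels. Of 18 defensin, chitinase, lipid transfer and thionin genes listed, 8 were bright enough to be tested. Of these 4 passed as higher, beside 6.37% higher over all probe sets, and the other 4 did not pass. With the filter set on the F1 and Col arrays, 2 of the list were called. Of the 5 salicylic acid and defence genes tested, CHI and SAG101 passed as higher, beside 6.37% higher over all probe sets. Over all settings 0 to 2 were called. GRX480, a glutaredoxin of the salicylic acid response, differed by 0.75 with an adjusted p of 0.229. The Col mean of SAG101, 85.6, was below the filter signal too. SAG101, a lipase-like protein of immunity and senescence (0.76, adjusted p = 0.0412) was not past the threshold in 9 of the 17 alternatives that tested it, with adjusted p-values up to 0.138 (without Col replicate 1).

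OPCL1, a ligase of jasmonate synthesis, had signals of 1024, 672 and 745 in F1, against 584, 447 and 496 in Col, a difference of 0.66 (adjusted p = 0.011), lost without Col replicate 2 (0.57, adjusted p = 0.0633). Detoxification enzymes moved only in part. GSTU26, a glutathione transferase, stood at 668, 650.3 and 739 in F1, against 169, 253 and 199 in Col, a difference of 1.74 ± 0.14 (SE, adjusted p = 8.44e-07), and GSTU27 was higher by 0.87 (adjusted p = 3.84e-05). The other 6 of 8 glutathione transferases tested did not pass; over all probe sets 11.5% passed. The cytochrome P450 family behaved alike in number, with CYP71B24 (1.104, adjusted p = 0.000169) and CYP71B6 (0.50, adjusted p = 0.00208) the only ones past the threshold of 11 tested.

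**Figure D3:**
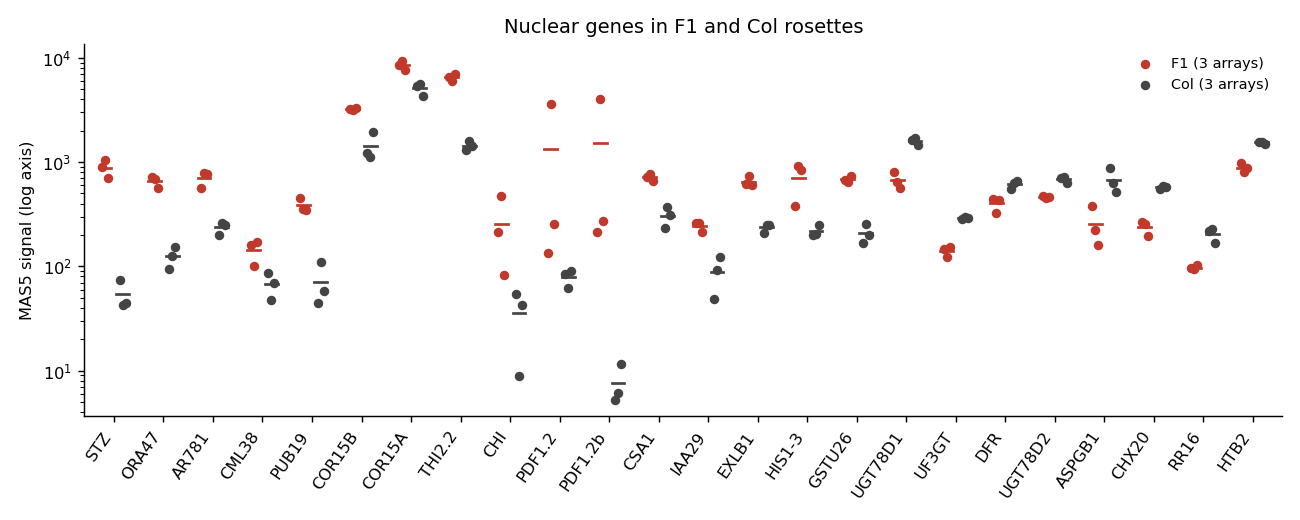
MAS5 signals on a log axis for 24 nuclear genes in the 3 F1 arrays (red, left of each pair) and the 3 Col arrays (grey, right), with a short line at each group's mean. THI2.2 sits at 5943 to 7047 in F1 above 1308 to 1582 in Col, whereas PDF1.2 spreads between 135 and 3617 in F1.

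Genes of auxin response and growth by expansion held a few strong gains. IAA29, an Aux/IAA repressor that responds quickly to auxin, had signals of 262, 259 and 214 in F1, against 49.1, 91.8 and 124 in Col, which is a log2 difference of 1.57 (adjusted p = 0.00196). Its Col mean of 88.2 was below the filter signal, so it was tested through its F1 and C24 levels. EXLB1, an expansin-like wall protein, stood at 610.2, 739 and 603 in F1, against 207, 250.1 and 251 in Col, a difference of 1.46 ± 0.17 (SE, adjusted p = 4.08e-05). Neither gene's groups overlapped, and their C24 means of 238 and 623 were near those of F1, 245 and 651. GH3.9, of the family that conjugates auxin and related acids, was higher by 0.83 (adjusted p = 0.00894). HAT2, an auxin-inducible homeodomain gene, was higher by 0.41 (adjusted p = 0.0283), a call that failed in 5 alternatives, with an adjusted p of 0.0992 without Col replicate 3. The expansin gene EXPA4 fell by 0.53 (adjusted p = 0.0203), a call lost without Col replicates 2 or 3 or F1 replicates 1 or 3 (adjusted p up to 0.0809). That made 4 higher and 1 lower of 17 tested, with a median of -0.09, beside 6.37% higher and 5.08% lower over all probe sets.

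ARL, a homologue of the organ-size gene ARGOS that promotes cell expansion, had signals of 706, 564 and 732 in F1, against 282, 335 and 328 in Col. It differed by 1.08 ± 0.14 (SE, adjusted p = 0.000129) with no overlap. HIS1-3, a linker histone induced by drought, stood at 376, 912 and 846 in F1, against 202, 203 and 249 in Col, a difference of 1.61 (adjusted p = 0.000459), with F1 replicate 1 the lowest of its group but above every Col array. Both core histone genes called, of the H2B family, were lower. HTB2 stood at 972, 796 and 884 in F1, against 1570.4, 1573 and 1502 in Col, a difference of -0.81 (adjusted p = 0.000271), and HTB4 at 3401 in F1 and 5225 in Col (means of 3 arrays), a difference of -0.65 (adjusted p = 0.00728). PRL, the replication-licensing factor MCM7, fell by 0.46 (adjusted p = 0.0286), but that call was lost in 4 of the leave-one-out fits, with an adjusted p of 0.105 without Col replicate 1. In all, 2 of 15 genes of the cell cycle, replication and chromatin list were higher and 3 lower, with a median of -0.21, beside 6.37% higher and 5.08% lower over all probe sets.

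Of 23 cell wall enzymes tested, 1 was higher and 1 lower (EXPA4 again), which is near the 11.5% called over all probe sets. The higher one, the pectin methylesterase gene ATPMEPCRB, differed by 1.31 (adjusted p = 0.0231) and failed in 7 of the 16 alternatives that tested it (adjusted p up to 0.104, without Col replicate 2). Its Col mean of 61.3 was below the filter signal, so it was tested through its F1 and C24 levels. Of 10 redox enzymes tested, 3 passed, each as higher, beside 6.37% higher over all probe sets: PRXR1 and the glutaredoxins GRXC1 (0.45) and GRXC2 (0.33). Without Col replicate 2 the calls of both glutaredoxins were lost (adjusted p of 0.0619 and 0.0818). The brightest, the peroxidase gene PRXR1, had signals of 20994, 21762 and 22679 in F1, against 15380.1, 14894 and 18310.2 in Col, a difference of 0.43 (adjusted p = 0.00185). The groups did not overlap although the rise was under 1.5-fold.

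**Figure D4:**
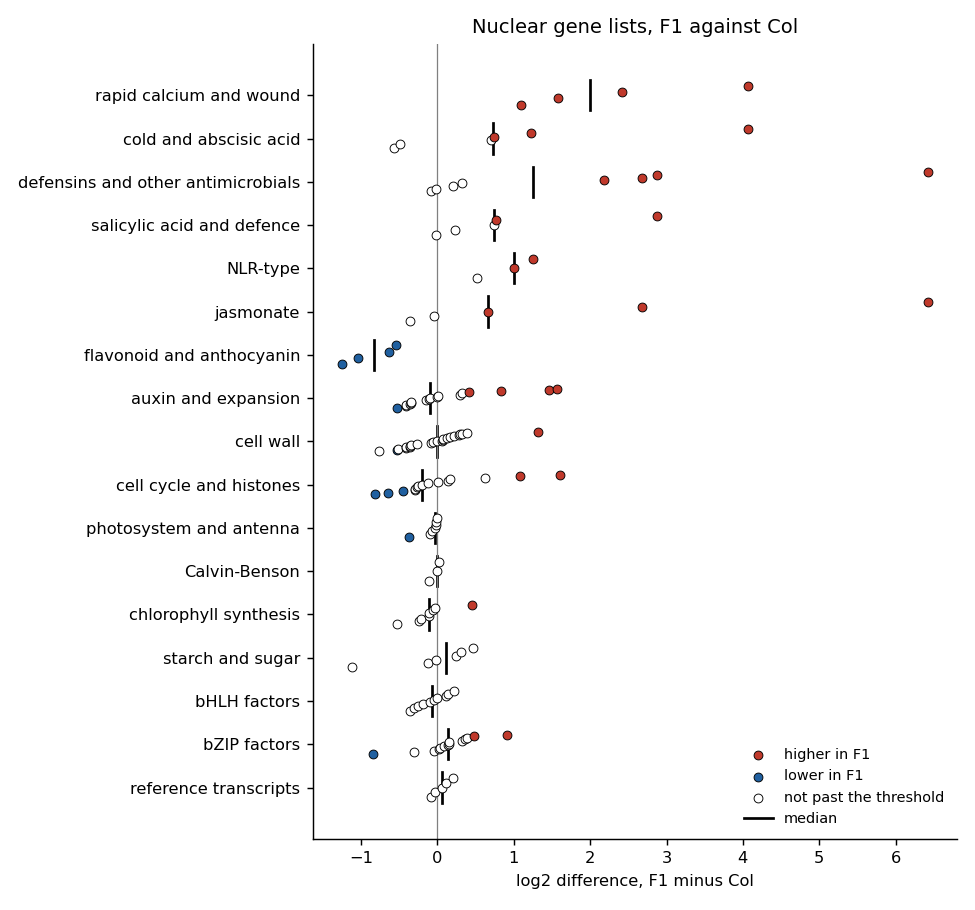
Each point is a gene of a nuclear list, placed by its log2 difference, F1 minus Col; filled points passed the threshold (red higher, blue lower in F1) and the bar is the list's median over the members tested. The flavonoid points all lie left of 0, at -1.25 to -0.55, and the photosystem points crowd around 0.

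Many of the strongest gains carried no gene symbol beyond a locus code. AT4G29200 had signals of 1645, 1836 and 1803 in F1, against 52.2, 35.4 and 64.8 in Col, which is a log2 difference of 5.16 (adjusted p = 2.60e-11), with 4087 in C24. Its Col mean of 50.8 was below the filter signal, so it was tested through its F1 and C24 levels. With the offset of 32 its difference was 4.45. AT4G27280 stood at 5400.5, 5435 and 4865 in F1, against 415, 301 and 354 in Col, a difference of 3.88 ± 0.15 (SE, adjusted p = 2.22e-10); here C24, at 1313, was below every F1 array. AT3G22240 was among the brightest of all called genes, with 11946, 23494 and 10371 in F1, against 1129, 663 and 1442 in Col, a difference of 3.80 (adjusted p = 7.28e-07), while C24 averaged 587. In each of these 3 genes the lowest F1 array exceeded the highest Col array more than 7-fold. AT1G61500, AT1G78450, AT1G72920, AT2G29170 and AT1G19960 were higher by 2.95, 3.08, 3.16, 3.45 and 3.52 on the log2 scale. The Col means of AT1G78450 (88.2) and AT2G29170 (70.9) were below the filter signal, so these were tested through their F1 and C24 levels. AT5G34920 (5.31), AT3G60920 (4.62), AT4G19430 (3.86), AT3G48640 (3.83), AT5G15360 (3.40), AT5G24240 (2.98) and AT1G11210 (2.73) were called too. Their Col means were 12.5 to 37.3, far below the filter signal, and with the offset of 32 their differences shrank to between 1.79 and 3.04, still past the threshold. Single Col arrays moved these differences. Without Col replicate 1 they were 4.72 for AT5G34920, 4.59 for AT4G19430, 2.53 for AT5G15360 and 1.98 for AT1G11210. Without Col replicate 2 they were 6.22 for AT5G34920, 3.01 for AT3G48640 and 2.05 for AT5G24240, and without Col replicate 3 they were 4.03 for AT3G60920 and 2.70 for AT4G19430.

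The remaining 7 genes with a symbol that rose at least 2-fold were picked out after their values were seen. TET8, a tetraspanin of extracellular vesicles, had signals of 1917, 1933 and 1701 in F1, against 735, 561 and 764 in Col, a difference of 1.44 ± 0.12 (SE, adjusted p = 1.19e-06). PUB19, a U-box ubiquitin ligase of the drought response, stood at 455, 354 and 349.7 in F1, against 44.6, 111 and 58.6 in Col, a difference of 2.54 (adjusted p = 0.00208). Neither overlapped. MPC (1.53), the glucosidase-family gene BGLU43 (1.40) and ACA.l (1.03) held their calls in every alternative that tested them, which for BGLU43 were 16 of the 18. The Col means of PUB19 (71.3), MPC (64.4), BGLU43 (49.7) and REV7 (75.9) were below the filter signal, so these were tested through their F1 or C24 levels. RRP41L (1.12) lost its call in 5 alternatives, with an adjusted p of 0.153 and a difference of 0.82 without Col replicate 2, and REV7 (1.02) in 4, with 0.84 and 0.0723 without the same array.

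Losses in nuclear genes were fewer at 2-fold or more, and flavonoid genes were among them. UGT78D1, which adds rhamnose to flavonols, had signals of 810.4, 647 and 568 in F1, against 1619, 1709 and 1446 in Col, which is a log2 difference of -1.25 ± 0.16 (SE, adjusted p = 0.000137). No F1 array reached the lowest Col array, and C24 averaged 99.4. UGT78D2, which adds glucose to flavonols and anthocyanidins, stood at 476, 453 and 466 in F1, against 699.9, 718 and 626 in Col, a difference of -0.55 (adjusted p = 0.00459). UF3GT, an anthocyanin xylosyltransferase, stood at 147, 124 and 154 in F1, against 282, 299 and 288 in Col, and DFR, the reductase at the entry to anthocyanins, at 445, 326 and 438 in F1, against 558, 637 and 665 in Col. Both were lower in each F1 array than in any Col array, with differences of -1.04 (adjusted p = 0.0116) and -0.63 (adjusted p = 0.0259). The UF3GT call was lost without Col replicate 2 (-1.01) or F1 replicate 2 (-0.94), where the adjusted p was 0.0518 and 0.0512. The DFR call was lost without Col replicate 2 (-0.61), Col replicate 3 (-0.58) or F1 replicate 2 (-0.49), where the adjusted p lay between 0.0828 and 0.115. These 4 were all the flavonoid genes bright enough to test, of 7 listed, and all were lower, beside 5.08% lower over all probe sets. The wider UDP-glycosyltransferase family, which holds 3 of them, had 2 higher and 4 lower of 26 tested, with a median of -0.18. UGT72B3 (0.59, adjusted p = 0.00599) and UGT72E1 (0.73, adjusted p = 0.0198) were higher and UGT71B1 (-0.49, adjusted p = 0.0452) was lower. The UGT72E1 call was lost without Col replicate 1 or 2 or F1 replicate 2 (adjusted p up to 0.0952), and the UGT71B1 call in 11 alternatives (adjusted p up to 0.149, without Col replicate 1).

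Single genes of nitrogen use, ion transport and cytokinin response were lower by more than 2-fold. The asparaginase gene ASPGB1 had signals of 377, 222 and 161 in F1, against 874, 630.4 and 516 in Col, a difference of -1.47 (adjusted p = 0.00427), with no overlap despite the spread within both groups. CHX20, a cation/proton exchanger of guard cells, stood at 267, 256 and 198 in F1, against 551, 591 and 573 in Col, a difference of -1.26 (adjusted p = 0.00107), and C24 averaged 81.0. RR16, a type-A response regulator induced by cytokinin, stood at 95.9, 93.8 and 103 in F1, against 218, 227 and 167 in Col, a difference of -1.06 (adjusted p = 0.00707). It was the only one of 6 cytokinin genes listed that was bright enough to be tested. Among locus codes, AT4G21870 was at 359, 307 and 326 in F1, against 1075, 1098 and 1131 in Col, a difference of -1.74 (adjusted p = 1.38e-07). AT2G36885 (-1.50), AT1G29270 (-1.32), AT2G05540 (-1.24) and AT4G20480 (-1.22) were called in every alternative that tested them. AT5G62210 (-1.23) and AT3G49160 (-1.20) each lost their call in 4 alternatives, with adjusted p-values up to 0.0636 and 0.0884. AT3G44970 (-1.77, adjusted p = 0.041) lost its call without any 1 of the F1 or Col arrays, with adjusted p-values up to 0.119 and differences of -1.90 to -1.64.

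Among genes of flowering time 1 of 5 tested was lower, and among those of sugar, nutrient and water transport 1 was higher and 3 were lower of 16 tested, beside 6.37% higher and 5.08% lower over all probe sets. The MADS-box gene AGL24, which promotes flowering, fell by 0.89 (adjusted p = 0.00895; 0.0521 without Col replicate 1), and HYH, a bZIP factor of light signalling, fell by 0.84 (adjusted p = 0.0128; 0.0722 without Col replicate 1). The sugar transporter gene SWEET1 fell by 0.68 (adjusted p = 0.0109; 0.0508 without F1 replicate 3) and SWEET2 fell by 0.61 (adjusted p = 0.0139; 0.0549 without Col replicate 1 and 0.0595 without F1 replicate 2). SWEET13 was higher by 0.55 (adjusted p = 0.042) and lost its call in 8 alternatives (adjusted p up to 0.181, without F1 replicate 2). The jacalin lectin genes of the PYK10 complex split. JAL22 had signals of 555, 446 and 453 in F1, against 668, 915 and 1066 in Col, a difference of -0.85 (adjusted p = 0.00636), and C24 averaged 52.9. JAL23 was higher by 0.68 (adjusted p = 0.0172), a call lost without Col replicate 2 (0.48, adjusted p = 0.0816), F1 replicate 2 or F1 replicate 3. NAI2, which builds the endoplasmic reticulum bodies that hold PYK10, stood at 301, 351 and 409 in F1, against 827, 572 and 798 in Col, a difference of -1.04 that did not pass (adjusted p = 0.142).

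Nuclear genes of photosynthesis and chlorophyll synthesis passed at about the share of all probe sets, 11.5%. Of 7 nuclear photosystem and antenna genes tested, 1 passed, as lower, with a median of -0.04 for the list (0.01 without Col replicate 3). The antenna gene LHCB4.1 differed by -0.02 and LHCB4.2 by -0.10 (adjusted p of 0.894 and 0.392); the lower one was LHCB4.3 (-0.37, adjusted p = 0.0209), a call lost in 5 alternatives (adjusted p up to 0.0903, without F1 replicate 2). Of 3 Calvin-Benson genes 0 passed in limma, 0 at an unadjusted p under 0.05, with a median of 0.00: RCA differed by 0.03, SBPASE by 0.00 and PRK by -0.12. Of 6 starch and sugar genes 0 passed, 2 at an unadjusted p under 0.05. Chlorophyll synthesis had 1 higher of 8, PORB, a light-requiring protochlorophyllide reductase, whose groups overlapped (0.45, adjusted p = 0.0311) and whose call failed in 6 alternatives (0.142 without Col replicate 1). Of 10 bHLH factors 0 passed, 2 at an unadjusted p under 0.05, and of 5 reference transcripts 0 passed, 1 at that p. Of 14 bZIP factors BZIP34 (0.90) and BZIP53 (0.48) were higher and HYH lower. Without F1 replicate 1 neither rise passed (adjusted p of 0.0678 and 0.0708). The Col mean of BZIP34, 87.6, was below the filter signal, so it was tested through its F1 and C24 levels.

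The brightest transcripts that passed shifted by less than 2-fold, apart from AT3G22240. AT2G25510 had signals of 21769, 34692 and 25367 in F1, against 14805, 14438 and 15346 in Col, a difference of 0.85 (adjusted p = 0.000307), with 30986 in C24. HPR, the hydroxypyruvate reductase of photorespiration, stood at 17475, 15416 and 17730.3 in F1, against 20049, 20309 and 20479 in Col. It fell by 0.27 (adjusted p = 0.0258), a call lost in 6 alternatives, with an adjusted p of 0.117 without F1 replicate 2. PIFI, a chloroplast protein of electron flow around photosystem I, was higher by 0.37 (adjusted p = 0.0286), but lost its call without any 1 of Col replicates 1 and 2 and the F1 arrays (adjusted p up to 0.134).

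Chloroplast-encoded transcripts were more often lower than higher in F1. Of 69 tested, 35 were lower and 6 higher in F1, with a median of -0.34, beside 5.08% lower and a median of -0.0055 over all probe sets. Over all alternatives the lower count ran between 28 and 39 and the higher count between 6 and 7. They supplied 10 of the 55 falls of 2-fold or more and 2 of the 276 rises. Probe sets with 1 gene that is not chloroplast-encoded gave 131 rises and 23 falls at the same size.

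Falls were called in each of the complexes, in different numbers. For photosystem II 11 of 15 genes were lower and 2 higher (median -0.62), for the NDH complex of cyclic electron flow 4 of 10 were lower (-0.66), and for the cytochrome b6f complex 3 of 6 (-0.47). ATP synthase had 3 of 6 lower (-0.39), photosystem I and its assembly factors 3 of 7 lower and 1 higher (-0.38), ribosomal proteins 7 of 15 lower and 2 higher (-0.28), and the RNA polymerase 1 of 4 lower and 1 higher (-0.24). Without Col replicate 2 the ribosomal proteins had 4 lower. Members of 1 complex differed in the size of their change. In the cytochrome b6f complex petG had signals of 163, 147 and 218 in F1, against 544, 716 and 571 in Col, a difference of -1.80 ± 0.15 (SE, adjusted p = 1.61e-06), whereas petA fell by 0.54 (adjusted p = 0.00266). C24 averaged 1426 for petG, above both. The atpF transcript of ATP synthase fell by 1.17, atpH fell by 0.72 and atpA fell by 0.60, while atpB (-0.03) and atpE (0.00) did not pass.

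Several other chloroplast falls exceeded 2-fold. The psbE transcript of photosystem II had signals of 3953, 4427 and 4469 in F1, against 8816, 9472 and 9715 in Col, a difference of -1.12 (adjusted p = 1.61e-07). That of ndhK stood at 3929, 3778 and 3433 in F1, against 8806, 8630.5 and 9679 in Col, a difference of -1.28 (adjusted p = 7.03e-07). No F1 array overlapped a Col array in either gene. The ribosomal genes rpl20 (-1.47) and rps15 (-1.31), ndhE (-1.33), cemA (-1.15) and the photosystem I assembly genes ycf3 (-1.13) and ycf4 (-1.18) made up the rest.

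The 6 chloroplast transcripts that rose were led by rpoB, which encodes a subunit of the plastid RNA polymerase. It had signals of 792, 742 and 716 in F1, against 122, 80.4 and 76.9 in Col, a difference of 3.04 ± 0.16 (SE, adjusted p = 6.87e-09), and C24 averaged 913. The groups were far apart, yet the polymerase gene rpoC1 fell by 0.29 (adjusted p = 0.0381), a call lost in 9 alternatives (adjusted p up to 0.139, without Col replicate 2). The photosystem II genes psbK (1.02) and psbI (0.82), the photosystem I gene psaJ (0.56) and the ribosomal genes rpl33 (0.53) and rps18 (0.72) were the other 5. Their adjusted p-values ran up to 0.00301. Their F1 and C24 means were 8781 and 8489 for psbK, 8686 and 7982 for psbI, and 8388 and 8274 for psaJ. For rpl33 the F1 and C24 means were 12922.5 and 11952, and for rps18 5100 and 5099. Of the 9 mitochondrion-encoded genes tested, orfX (-1.10, adjusted p = 0.00928) and the NADH dehydrogenase gene nad4 (-0.75, adjusted p = 0.00279) passed, both as lower, beside 5.08% lower over all probe sets. The list as a whole was not lower: its median was 0.24, with 5 members above 0 and 4 below. That median was -0.30 with the 60th-percentile filter.

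**Figure D5:**
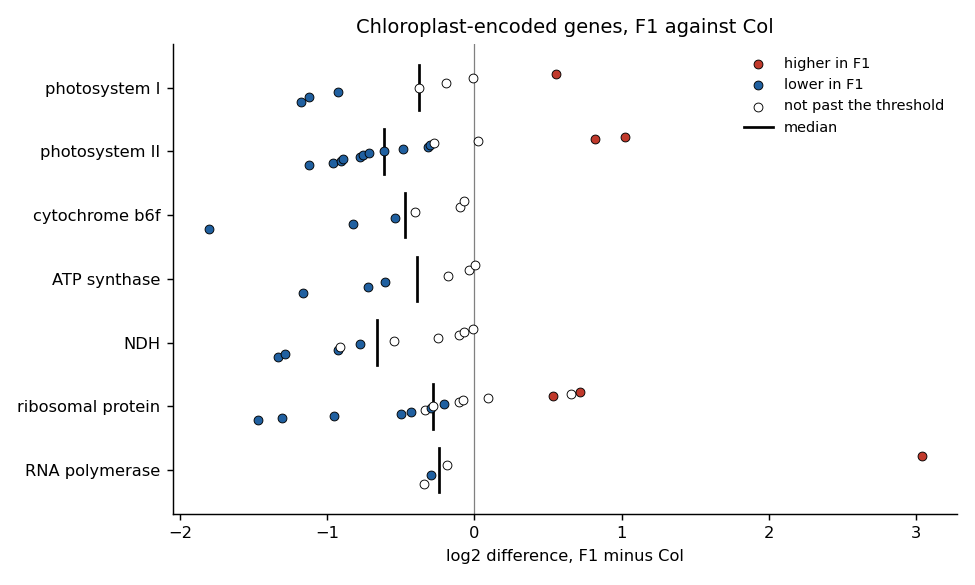
Each point is a chloroplast-encoded gene, placed by its log2 difference, F1 minus Col, in the row of its complex; filled points passed the threshold (red higher, blue lower in F1) and the bar is the median of the row. Every median lies left of 0, between -0.66 and -0.24, and rpoB stands alone at 3.04.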

How the data were processed

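The deposited values are linear intensity values that the submitters' processing notes credit to MAS5, 1 for each probe set on an array; the sources used here do not give its settings. The mean after trimming 2% at either end was 500.049 to 500.054 on each array, so differences are relative to the rest of the array. Arrays have no read depth, and their number limits the precision. The platform annotation gave 1 gene for 13513 of 22810 probe sets, several for 503 and none for 8730, and 13436 were matched to RefSeq (TAIR10.1), used for names and for chloroplast genes. Of the 22810, 64 were controls.

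A mean per group was fitted to the log2 signal of all 9 arrays (limma 3.58.1, R 4.3.3, eBayes with an intensity trend), after probe sets with a mean log2 signal below the 40th percentile (6.49) were left out; the fit was tested on simulated data. P-values are two-sided and adjusted by Benjamini-Hochberg over 13648 probe sets. They set the F1 minus Col difference against the spread within groups over all 9 arrays, C24 included, as moderated by eBayes. Where a gene had several probe sets, lists used the brightest. Members and 57 gene lists were chosen with earlier results of these data known, so no list was tested. Genes were selected where they were among the 20 largest called changes in either direction, or were 2-fold list members. Others were up to 4 called members in each direction of a list with at least 3 tested, or the 5 brightest called in each direction. A further 7 were added after their values were seen. Not every selected gene is printed here. Whether base differences between C24 and the probes lower signals of C24 alleles was not tested. Promoter sequences were not analysed here. The alternatives were other filters, an offset of 32, median centring, quantile normalization, no intensity trend, the F1 and Col arrays alone, a replicate block and leaving out each array.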

Additional observations from a re-analysis of the deposited data

How the results depend on the processing

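Rises of 2-fold or more outnumbered falls under each of the 18 alternatives. The rises were 141 and the falls 29 with a 60th-percentile filter. The ratio of rises to falls, 5.02 as reported, was 4.40 with the F1 and Col arrays only, 4.14 with median centring, 4.18 with quantile normalization and 3.98 with the filter set on the F1 and Col arrays, the alternative chosen after seeing the data. Leaving out 1 array gave ratios of 3.67 (without F1 replicate 3) to 5.48 (without Col replicate 2), with 999 to 1517 probe sets called in all and 388 to 687 called lower; the causes were not tested. Of the 127 genes selected, printed here or not, 84 kept their call in each alternative that tested them, 43 lost it in at least 1 and 0 reversed. List medians turned sign in 39 of 809 combinations of a list and an alternative, in 16 lists. With the replicate block 1844 probe sets were called, 1007 higher and 837 lower; the same-numbered F1 and Col arrays deviated together only weakly (correlations of 0.096, 0.015 and 0.113), so the numbers are not taken to pair the samples, although each F1 array correlated best with the Col array of its own number. Signal near background limits the differences of genes whose Col signal lay below 89.9.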

Other observations

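Of the 2-fold changes, 143 rises and 22 falls lay in probe sets with no gene or several genes named here. Among these rises were probe set 265837_at, with signals of 748, 2499.8 and 378 in F1, against 11.9, 8.11 and 14.8 in Col (log2 difference 6.30, limma adjusted p = 2.22e-07), and 251625_at, with 307, 592 and 164 in F1, against 4.98, 3.17 and 5.11 in Col (6.16, adjusted p = 1.88e-08). These Col signals lay far below the filter signal of 89.9, so the sizes depend on how low values are treated: with an offset of 32 before the logarithm the differences were 4.42 and 3.25. In both, F1 replicate 2 was the highest hybrid array, as it was for PDF1.2, PDF1.2b and CHI. Among the falls in probe sets with no gene named here, the deepest was 267509_at, with 156, 125 and 140 in F1, against 670, 618 and 563 in Col (-2.14, adjusted p = 2.83e-07). The next of these was 254283_s_at, which averaged 335 in F1 and 934 in Col (-1.49, adjusted p = 0.000826). Probe sets with several genes were left out of this ranking.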
